A study of Mus musculus with 4 samples.

Results

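The metallothionein genes Mt1, Mt2 and Mt3 were described in the injured cortex of mice, as 3 of the 20832 named genes on a whole-genome array. Their probes were found through the RefSeq accession on each spot, which gave 1 probe with 1 spot per array for each gene: A_66_P111660 for Mt1 (NM_013602), A_51_P246317 for Mt2 (NM_008630) and A_52_P320971 for Mt3 (NM_013603). The 3 genes were chosen with their ratios between the genotypes in these arrays already known, so those ratios are given as a description, with no test. Of the 39429 probes on the array, 27427 carried a gene symbol.

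The study used mice of the strain C57BL/6, aged 8 weeks, either wild type or labelled Ndrg2KO, a knockout of a gene strongly expressed in astrocytes. All mice had been given a permanent stroke by electrocoagulation of the middle cerebral artery on the left, and total RNA came from the cortex of the injured side 24 h later. Neither an unoperated group nor the opposite cortex was analysed here, so the values compare injured with injured tissue. Each of the 4 arrays carried a knockout-labelled sample in Cy3 and a wild-type sample in Cy5 with the same replicate number, and the dyes were never swapped, so genotype and a probe's dye effect cannot be told apart. The labels did not state whether each sample came from a separate animal, so the spread between samples may in part be technical. The ratios of arrays 1 and 2 correlated at r = 0.73 and those of arrays 3 and 4 at 0.63. Between these pairs r was 0.41 to 0.48. The SDs and tests treat the 4 arrays as independent, and the source of this pairing was not tested.

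Metallothioneins are small proteins rich in cysteine that bind zinc and copper ions through their thiol groups and react with oxidants. Mt1 and Mt2 are made in most tissues, in the brain mainly by astrocytes, and their transcription rises with free zinc through the metal-responsive factor MTF1 and with glucocorticoids, interleukin-6 signalling and oxidative stress. They are among the genes known to be induced after brain ischaemia. Mt3, first described as a growth inhibitory factor, is made mainly in the brain, by neurons that store zinc in synaptic vesicles and by astrocytes, and responds little to metals. Mt4 is a gene of stratified epithelia.

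The genes lie side by side on mouse chromosome 8, all on the plus strand. The stretches around their starts are shown because MTF1 acts through short metal response elements there, and their bearing on the ratios was not tested. Each runs from 150 bases before to 30 bases after the start that RefSeq gives on the build GRCm38.p6, and capitals mark matches to the core of the metal response element, TGCACNC or TGCGCNC, on either strand.
Mt1, chr8:94178939-94179118, plus strand: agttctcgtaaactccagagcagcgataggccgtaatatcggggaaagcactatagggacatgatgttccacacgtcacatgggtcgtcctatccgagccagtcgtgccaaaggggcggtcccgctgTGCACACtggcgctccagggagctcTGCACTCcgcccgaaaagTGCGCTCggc
Mt2, chr8:94172468-94172647, plus strand: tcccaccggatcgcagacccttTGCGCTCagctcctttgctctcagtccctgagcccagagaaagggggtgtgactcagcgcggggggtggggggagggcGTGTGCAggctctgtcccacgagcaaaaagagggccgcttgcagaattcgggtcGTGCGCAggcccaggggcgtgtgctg
Mt3, chr8:94152457-94152636, plus strand: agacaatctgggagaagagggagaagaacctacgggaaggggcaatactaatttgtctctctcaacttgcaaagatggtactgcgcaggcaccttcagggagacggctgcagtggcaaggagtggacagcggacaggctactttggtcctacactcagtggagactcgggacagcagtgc

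Over the full window of the table, 250 bases before to 50 after the start, Mt1 had 3 matches to the core, Mt2 had 4, Mt3 had 1 and Mt4 had 1. Those of Mt1 began at positions -23, 3 and 21 from the start, and those of Mt2 at -223, -128, -50 and 5. Of the 32851 windows of this length in the table, 25.7% held at least 1 match, 1.97% at least 3 and 0.517% at least 4. Within this window the core of the antioxidant response element, TGACNNNGC on either strand, matched once in Mt2. It matched in none of the other 3 genes there, against 12.4% of all windows. The STAT site TTCNNNGAA, which reads the same on both strands, matched in none of the 4 genes, against 8.30% of all windows. The match of Mt3 ends beyond the printed stretch, as the first of Mt2 lies before it. No motif match overlapped another in these genes. A match shows that the letters are present and says nothing of binding. Positions and counts hold for the start that RefSeq gives, and other starts were not tried. Bases outside the window were not searched, so a gene without a match here may carry the element nearby.

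**Figure D1:**
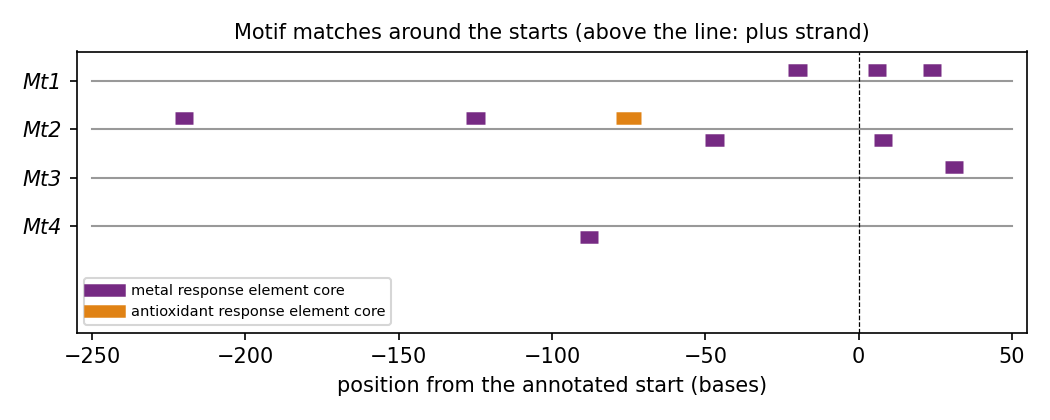
Matches to the metal response element core (purple) and the antioxidant response element core (orange) in Mt1 to Mt4, by distance in bases from the start that RefSeq gives (dashed line); boxes above a line are on the plus strand and boxes below it on the minus strand. Mt1 has 3 purple boxes, Mt2 has 4, and Mt3 and Mt4 have 1 each.

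Markers of cortex cells were present. The astrocyte, neuron, microglia, endothelial and oligodendrocyte marker lists were well above background on all 4 arrays in both channels for every gene on them (16, 12, 10, 10 and 8 genes). Of 24567 features tested, 2119 (8.63%) rose and 3111 (12.7%) fell in Ndrg2KO relative to wild type (limma, Benjamini-Hochberg adjusted p under 0.05). The median log2 ratio over all features was -0.02. No spot was saturated on any array. The targeted gene Ndrg2 stood at -0.22, -0.22, -0.18 and -0.11 on arrays 1 to 4 (mean -0.04 with the scanner software's ratios and -0.81 when arrays were centred on the median) and lay at 669 to 900 times the local background in the knockout-labelled channel. The labels did not give the deleted part of the gene, so this probe may lie outside it, and the samples are called by their label.

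Mt1, Mt2 and Mt3 were all lower in the knockout-labelled samples on all 4 arrays, at mean log2 ratios of -0.61 ± 0.29, -0.50 ± 0.20 and -0.27 ± 0.19 (SD, n = 4). With this normalization wild-type signal was 1.52, 1.42 and 1.20 times the knockout-labelled signal. These sizes depended on the normalization: centring each array on its median gave -1.41, -1.27 and -0.65, and the scanner software's ratios gave -0.41, -0.25 and -0.26. All 3 were among the 12.7% of features called lower, and the groups of Mt1 and Mt3 did not overlap; since the genes were chosen on this contrast, nothing is read from these counts. Mt1 and Mt2 were among the brightest probes of the array, where most probes lay below 0 and most were called lower. Of the 100 kept probes nearest in brightness, 84 of the 96 tested were called lower for Mt1 and 74 of 94 for Mt2. For Mt3 these were 13 of 90. Relative to the 200 kept probes nearest in brightness the differences of Mt1 and Mt2 were smaller, at -0.37 ± 0.27 and -0.27 ± 0.19. That of Mt3 stayed at -0.27 ± 0.19. Relative to the 100 nearest, the differences of Mt1, Mt2 and Mt3 were -0.26 ± 0.26, -0.21 ± 0.18 and -0.26 ± 0.19. The size of the difference of Mt1 and Mt2 thus depended on how many probes were set beside them. In a tissue sample, fewer cells of a type and less RNA per cell cannot be told apart.

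Mt1 is an isoform known for its strong induction by metals and stress. Its normalized log2 intensity was 17.46, 17.40, 17.60 and 17.57 in the wild-type samples of arrays 1 to 4, and 16.97, 17.07, 17.00 and 16.56 in the knockout-labelled samples. The groups did not overlap, and the knockout-labelled sample of array 4 was the lowest of all 8. The share of all features whose groups did not overlap is not given here. The lack of overlap is therefore not read as particular to Mt1 or Mt3. The log2 ratios were -0.49, -0.33, -0.60 and -1.01, so the difference on array 4 was 2.01-fold and that on array 2 was 1.26-fold. The spot's signal was 1358 to 4424 times the local background, and 17 of the 30256 kept probes were brighter.

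Mt2 is the partner of Mt1 and is usually induced with it. Its normalized log2 intensity was 16.83, 17.32, 17.25 and 17.12 in the wild-type samples and 16.31, 17.07, 16.74 and 16.39 in the knockout-labelled ones. Here the groups overlapped, because both samples of array 2 were high and both samples of array 1 were low. Within each array the knockout-labelled sample was still the lower, with log2 ratios of -0.52, -0.24, -0.52 and -0.73. In the scanner software's own dye-normalized signals, array 2 turned the other way for Mt2, at 0.15, while arrays 1, 3 and 4 stood at -0.36, -0.25 and -0.52.

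Mt3, the isoform of neurons and astrocytes, gave a spot at 110 to 191 times the local background. Its normalized log2 intensity was 13.13, 13.23, 13.17 and 13.17 in the wild-type samples and 12.97, 12.68, 13.02 and 12.96 in the knockout-labelled samples. The groups did not overlap, and the wild-type samples lay close together (SD 0.04) while the knockout-labelled sample of array 2 lay below the other 3. The log2 ratios were -0.16, -0.54, -0.14 and -0.22. Without array 2 the mean ratio of Mt3 was -0.17 ± 0.04 (SD, n = 3), so this array carried a large part of the mean.

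**Figure D2:**
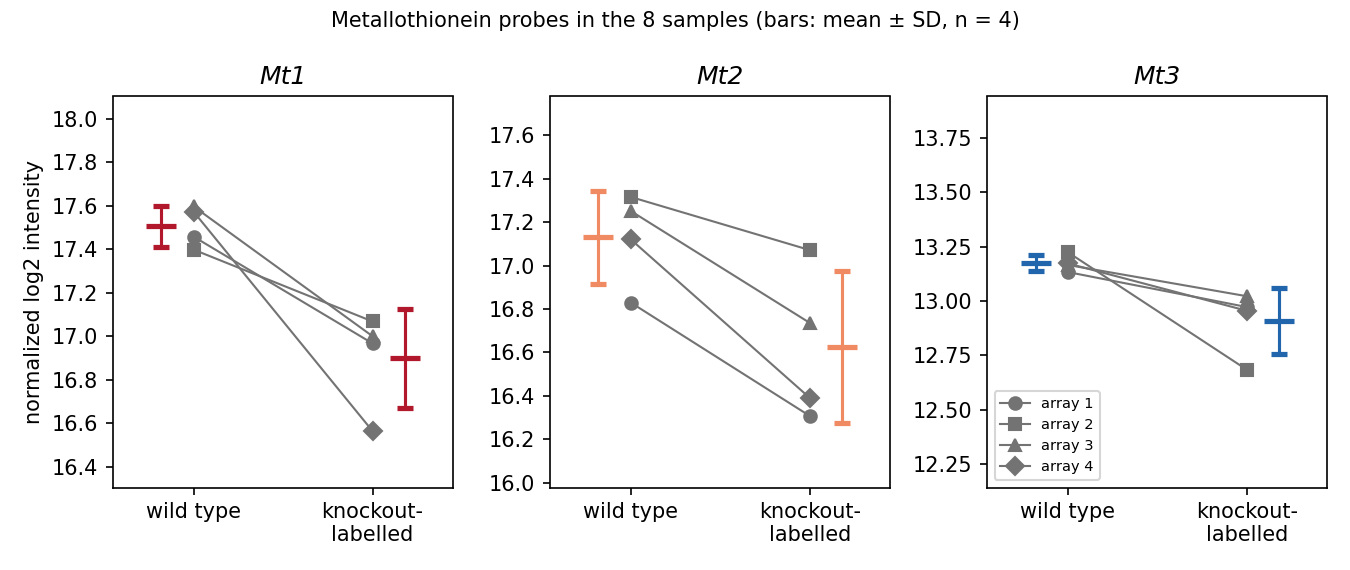
Normalized log2 intensity of Mt1, Mt2 and Mt3 in the wild-type and knockout-labelled samples; grey lines join the 2 samples of an array and coloured bars give the mean ± SD (n = 4). Every line falls from wild type to knockout-labelled, the groups overlap for Mt2 only, and the steepest line belongs to array 4 for Mt1 and Mt2 and to array 2 for Mt3.

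In the software's processed intensities, made without the normalization used above, Mt1 was at 102930, 97331, 112307 and 108819 in the wild-type samples and at 81739, 92540, 85984 and 60775 in the knockout-labelled samples. Mt3 was at 7749, 8695, 7430 and 8540 in the wild-type samples and at 6718, 6237, 6680 and 7378 in the knockout-labelled ones. Neither gene's groups overlapped on that scale, although for Mt3 the gap between the nearest samples of the 2 groups was small. As above, nothing is read from this, since the share over all features is not given. Mt2 was at 96595, 126246, 120685 and 111626 against 75124, 139797, 101478 and 77838, with overlap, its highest sample being a knockout-labelled one. The software's error of a single spot's log2 ratio was 0.20 to 0.22 for the 3 probes. This is a technical error of the software's own ratio and leaves out the spread between samples. Those ratios were -0.33, -0.07, -0.39 and -0.84 for Mt1 and -0.21, -0.48, -0.15 and -0.21 for Mt3. Both Mt1 and Mt2 lay within the error on array 2. Mt3 lay within it on array 3 and only just outside it on arrays 1 and 4.

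Brightness mattered for the size of these differences. The 200 kept probes nearest to Mt1 in mean intensity had a median log2 ratio of -0.24, 187 of them lay below 0, and 9 of them were lower than Mt1. The 200 nearest to Mt2 were largely the same probes, with the same median, and 25 of them were lower than Mt2. For Mt3 the median of its 200 nearest probes was -0.00, 101 of them lay below 0, and 10 of them were lower than Mt3. Since only 17 kept probes were brighter than Mt1, most of the probes set beside it were dimmer than it. Among the 100 nearest probes 9 were lower than Mt1 and 12 lower than Mt2. Among the 20 nearest, 2 were lower than Mt1 and 2 lower than Mt2.

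Array by array, Mt1 minus the median of its like-bright probes was -0.27, -0.10, -0.36 and -0.74. For Mt2 these differences were -0.30, -0.02, -0.28 and -0.47, so on array 2 Mt2 stood where probes of its brightness stood. For Mt3 they were -0.15, -0.55, -0.15 and -0.24. With the 100 or the 20 nearest probes in place of 200, the mean difference of Mt1 was -0.26 and that of Mt2 was -0.21, and with 500 they were -0.46 and -0.35. Without array 4 that of Mt1 was -0.25, and without array 2 that of Mt3 was -0.18.

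**Figure D3:**
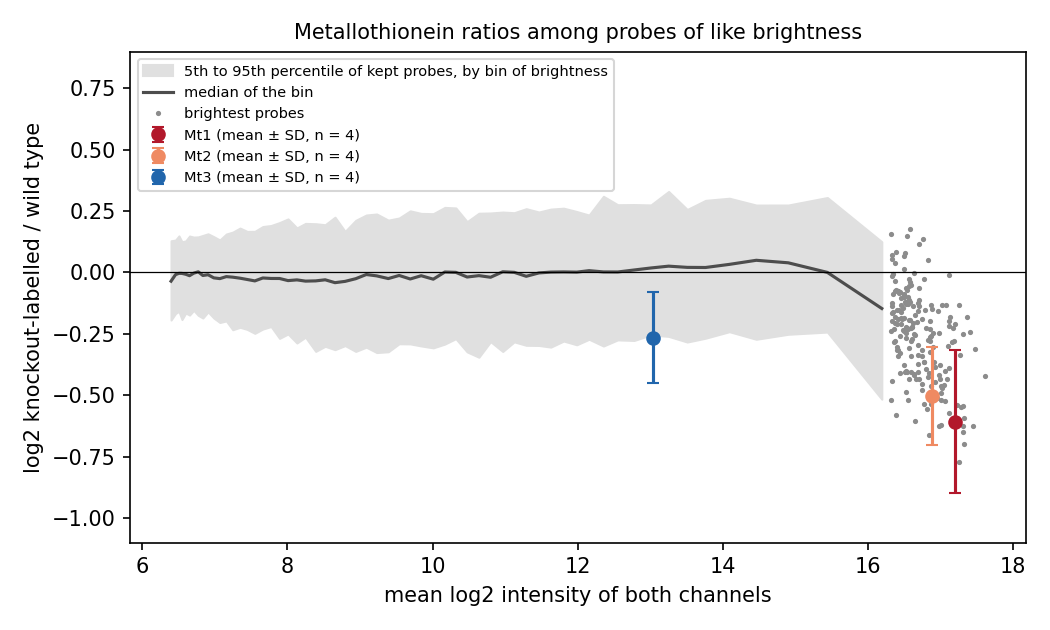
Mean log2 ratio (knockout-labelled to wild type) against mean log2 intensity; the grey band holds the 5th to 95th percentile of kept probes in bins of brightness, the line is the bin median, dots are single probes among the 200 brightest and coloured points are the 3 genes with SD over 4 arrays. The band drops below 0 at the bright end, where Mt1 and Mt2 lie in the lower part of the dots, and Mt3 lies at the lower edge of a band centred on 0.

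The ratios of Mt1 and Mt2 lay near each other on arrays 1 to 3 and farther apart on array 4. Mt1 minus Mt2 in log2 ratio was 0.03, -0.09, -0.08 and -0.28 on arrays 1 to 4, a mean of -0.10 ± 0.13 (SD, n = 4). Mt1 minus Mt3 was -0.33, 0.21, -0.45 and -0.79, and Mt2 minus Mt3 was -0.36, 0.30, -0.37 and -0.51, so array 2 alone had Mt3 as the lowest of the 3. As a measure of likeness, the root mean square difference of the ratios over the 4 arrays was 0.15 between Mt1 and Mt2, 0.50 between Mt1 and Mt3 and 0.39 between Mt2 and Mt3. With the scanner software's ratios these distances were 0.21, 0.40 and 0.36. The mean of Mt2 minus Mt3 went from -0.24 ± 0.36 to 0.02 ± 0.42 with them, so the likeness depended on the normalization. The measure takes in both the mean ratio and its pattern over the arrays. It also takes in the offset of bright probes. The 200 probes nearest in brightness had a median of -0.24 for Mt1 and Mt2 and of -0.00 for Mt3. Relative to these probes the means of Mt1, Mt2 and Mt3 were -0.37, -0.27 and -0.27. How far this offset entered the distances was not tested. The measure uses the ratios the genes were chosen on, so it is a description only. Mt1 and Mt2 share much of their sequence, and the probe sequences were not used here, so how far each probe also measured the other transcript was not tested.

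By the same measure, the genes outside the family nearest to Mt1 were Nuggc (0.17), Cck (0.17), which encodes the neuropeptide cholecystokinin, and Git1 (0.18). Cck had a mean ratio of -0.52, and -0.33 with the scanner software's ratios. The Cck probe, at a mean log2 intensity of 17.07, was nearly as bright as that of Mt1 (17.20). The 100 probes nearest to Mt1 had a median of -0.35, and how far brightness entered the likeness of Cck was not tested. Nearest to Mt2 were Olfr160 (0.06), Dmp1 (0.11) and Hk1 (0.11), a hexokinase gene of glycolysis. Nearest to Mt3 were Ccl24 (0.05), Zfp438 (0.05) and Sash1 (0.05), and 63 genes lay within 0.1 of it. The probes of Nuggc and Olfr160 were dim, and with the scanner software's ratios they stood at -1.76 and -2.83, far from Mt1 and Mt2. Likeness was taken over 4 arrays that share both dyes and a slide.

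Mt4, the epithelial isoform, was near the floor of the array at 1.67 to 2.44 times the local background. Its ratios were 0.23, -0.06, -0.07 and 0.09, and it did not pass the test (limma, adjusted p = 0.604). Of the other tested genes within 250 kb of the cluster, 6 are described here. Ogfod1, the neighbour that encodes a prolyl hydroxylase of a ribosomal protein, was lower at -0.33, -0.53, -0.47 and -0.36, a mean of -0.42 ± 0.09 (SD, n = 4; limma, adjusted p = 0.00336), and kept its call in all 13 alternatives run for it. The nucleoporin gene Nup93, on the side of Mt1, stood at 0.11 (limma, adjusted p = 0.209). Bbs2, on the side of Mt4, stood at -0.09 (adjusted p = 0.482), and Herpud1, a gene of the endoplasmic reticulum stress response, at 0.08 (adjusted p = 0.367). Gnao1 stood at -0.10 and Nudt21 at 0.01, and neither passed (adjusted p = 0.218 and 0.921).

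Genes that respond to free zinc or set its level come next. Of MTF1 and its other known targets, 2 of 8 were lower, 1 was higher and 5 did not pass, with a median of -0.08, where 12.7% of all features were lower and 8.63% higher. None of the 8 was called with the scanner software's ratios. The factor gene Mtf1 itself was at -0.38, -0.11, -0.04 and 0.00 and did not pass (limma, adjusted p = 0.195). Nor did Slc30a1, the zinc exporter gene that MTF1 induces together with the metallothioneins, at 0.11, 0.03, -0.17 and 0.13 (limma, adjusted p = 0.769), whose mean of 0.03 became -0.25 with median centring instead of loess. Selenow, a selenoprotein gene, was lower at -0.41 ± 0.14 (SD, n = 4; limma, adjusted p = 0.00638), and stood at -0.17 with the scanner software's ratios (adjusted p = 0.101). Csrp1 was lower at -0.18 (adjusted p = 0.0374), and Ndrg1, a relative of the targeted gene, was higher at 0.15 (adjusted p = 0.0438). Among 13 alternatives the calls of these last 2 held in 5 and in 3.

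Of 24 zinc transporter genes 22 were tested, of which 2 were higher, 1 was lower and 19 did not pass, with a median of 0.01. The shares of 9.09% higher and 4.55% lower compare with 8.63% and 12.7% over all features. Slc30a3, which loads zinc into synaptic vesicles of the neurons in which Mt3 is known, was higher at 0.39, 0.28, 0.36 and 0.18, a mean of 0.30 ± 0.09 (SD, n = 4; limma, adjusted p = 0.00948). Median centring left it at 0.04 and ended the call. Slc39a7, which releases zinc from the endoplasmic reticulum, was higher at 0.27 ± 0.02 (adjusted p = 0.00677), a direction that turned to -0.29 with median centring. Slc39a13 was lower at -0.25 ± 0.05 (adjusted p = 0.00988) under every alternative run. Slc39a14, a transporter induced in inflammation, stood at -0.17 and did not pass (adjusted p = 0.0507).

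Of 15 copper handling genes, 1 was higher (6.67%, against 8.63% of all features), 2 were lower (13.3%, against 12.7%) and 12 did not pass. The assembly factor gene Cox11 was higher at 0.32 ± 0.18 (limma, adjusted p = 0.0206). Sod1, the cytosolic superoxide dismutase that carries copper and zinc, was lower at -0.19 ± 0.06 (adjusted p = 0.0228), and Cp, the ferroxidase ceruloplasmin, at -0.23 ± 0.17 (adjusted p = 0.0478). None of these 3 was called with the scanner software's ratios, where Sod1 stood at -0.03 and Cox11 at 0.30 (adjusted p = 0.0686), and Cox11 turned to -0.029 with median centring. Cp kept its call in 4 of 13 alternatives. Of the receptors known to take up metallothioneins, Lrp1 stood at 0.06 and Lrp2 at -0.07, and neither passed (limma, adjusted p = 0.397 and 0.313). The probe of Lrp2 was well above background in 1 of 4 knockout-labelled channels, and its value turned with the scaling, from -0.63 with the scanner software's ratios (adjusted p = 0.0195) to 0.47 with median centring (adjusted p = 5.93e-05), so no direction is given for it.

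The known inducers of Mt1 and Mt2 were covered by a pair of lists. The list of 18 glucocorticoid-induced genes also held the receptor genes Nr3c1 and Nr3c2. Of the 18, 3 were higher (16.7%, against 8.63% of all features) and 1 was lower (5.56%, against 12.7%). The other 14 did not pass, and the median was -0.01. Sult1a1 was higher at 0.32 ± 0.08 (limma, adjusted p = 0.00679), the transcription factor gene Klf9 at 0.34 ± 0.18 (adjusted p = 0.0174) and the mineralocorticoid receptor gene Nr3c2 at 0.14 ± 0.04 (adjusted p = 0.0482), while Pdk4 was lower at -0.20 ± 0.10 (adjusted p = 0.0319). Median centring left Sult1a1 at 0.02 (adjusted p = 0.727) and turned Klf9 to -0.11. With the scanner software's ratios Klf9 (adjusted p = 0.0658) and Pdk4 (adjusted p = 0.067) were not called. The call of Nr3c2 was lost with each array left out in turn. A second Sult1a1 probe stood at 0.18. The list's medians were 0.14, 0.27, -0.04 and -0.13 on arrays 1 to 4.

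Of 18 genes of interleukin-6 and STAT3 signalling, none was higher, 3 were lower (16.7%, against 12.7% of all features) and 15 did not pass. The median was -0.20 and 16 of 18 (88.9%) lay below 0, against 55.7% of all features. The receptor gene Il6ra was lower at -0.34 ± 0.11 (limma, adjusted p = 0.00865), the transcription factor gene Cebpb at -0.22 ± 0.08 (adjusted p = 0.0187) and the kinase gene Jak2 at -0.19 ± 0.09 (adjusted p = 0.0331, and 0.0554 with the scanner software's ratios). The list's medians were -0.39, -0.30, 0.00 and -0.04 on arrays 1 to 4. Il6, the cytokine itself, and Timp1, both chosen after their values were seen, varied widely between arrays. Il6 was at -1.42, 0.21 and -0.29 on arrays 1, 3 and 4 and lower still on array 2, and Timp1 was at -1.72, -1.17, -0.05 and -0.06, and neither passed (limma, adjusted p = 0.0971 and 0.0889).

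**Figure D4:**
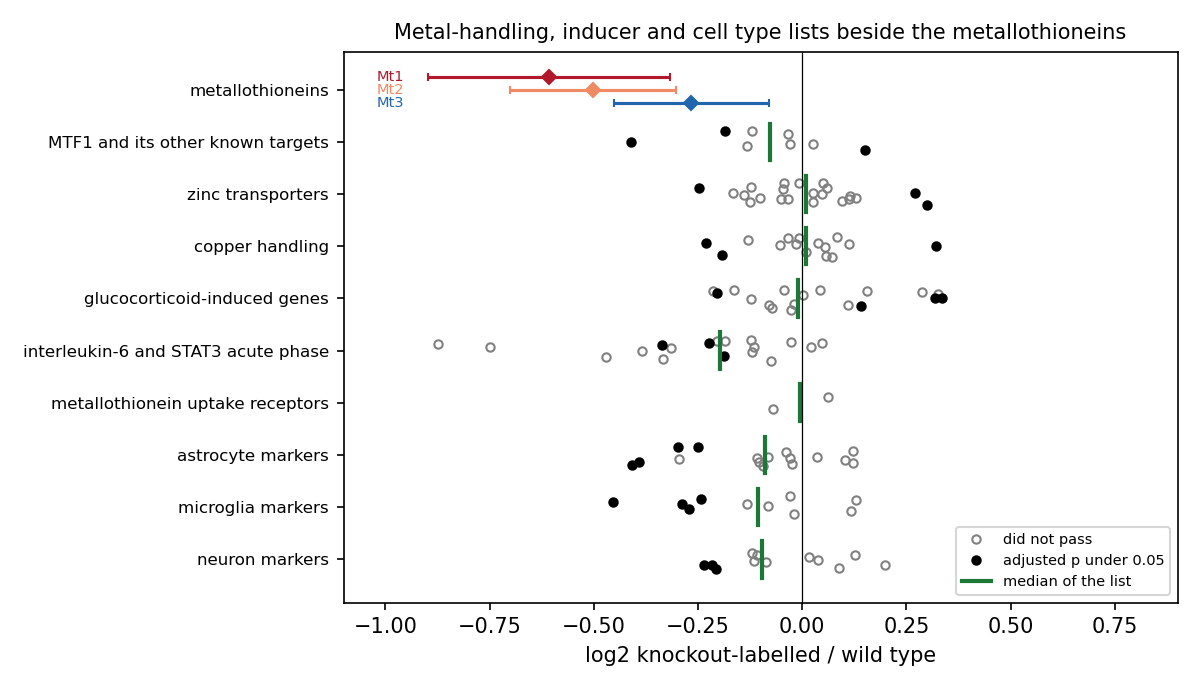
Mean log2 ratio (knockout-labelled to wild type) for Mt1, Mt2 and Mt3 (diamonds, SD over 4 arrays) and for the genes of 9 lists (circles, filled where the adjusted p was under 0.05; green bars are list medians). List medians lie between -0.20 and 0.01, to the right of Mt1, Mt2 and Mt3.

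Cell type markers were set beside the metallothioneins. Of 16 astrocyte markers 4 were lower (25%, against 12.7% of all features), none was higher and 12 did not pass, with a median of -0.09 and medians of -0.08, -0.17, -0.03 and -0.12 on arrays 1 to 4. The 4 were the water channel gene Aqp4 at -0.41 ± 0.17, the glycolytic gene Aldoc at -0.39 ± 0.09, Slc1a2, which encodes a glutamate transporter, at -0.30 ± 0.09 and the glutamine synthetase gene Glul at -0.25 ± 0.06 (limma, adjusted p = 0.00971, 0.00425, 0.00901 and 0.0105). With the scanner software's ratios 2 of the 4 kept the call, while Aldoc stood at -0.20 (adjusted p = 0.0745) and Glul at -0.18 (adjusted p = 0.0654). The Aldoc probe, at a mean log2 intensity of 16.80, was nearly as bright as that of Mt2 (16.88). The 100 probes nearest to Mt2 had a median of -0.29, and 74 of the 94 tested were called lower. How far brightness entered the astrocyte share was not tested. Other probes stood at -0.31 for Aqp4 and at -0.08 and -0.46 for Slc1a2. Gfap, the filament gene of reactive astrocytes, was picked for mention with its value known and missed the threshold, at -0.73, -0.41, 0.10 and -0.15 (adjusted p = 0.120). The part of these shifts in the metallothionein values was not tested.

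Of 10 microglia markers 4 were lower and none higher, among them Ctss at -0.45 ± 0.11 and Cx3cr1 at -0.29 ± 0.06 (limma, adjusted p = 0.0033 and 0.00719), the others being Aif1 and Trem2, and with the scanner software's ratios 2 of the 10 were. A second Cx3cr1 probe stood at -0.09. Of 12 neuron markers 3 were lower and none higher, the lowest p belonging to Stmn2 at -0.22 ± 0.10 (adjusted p = 0.024), beside Gad2 and Tbr1, whose second probe stood at 0.02. Of 10 endothelial markers 1 was lower, Ly6c1 at -0.39 with a second probe at -0.01, and of 9 neutrophil markers tested 2 were, Elane and Csf3r. Of 10 markers of choroid plexus and meninges 3 were lower, with a median of -0.25, including Dcn at -0.40 ± 0.21 and Lum at -0.51 ± 0.31, genes of fibroblast matrix, and Otx2. None of the neuron, endothelial, neutrophil or choroid plexus and meninges markers was called lower with the scanner software's ratios or with no replicate block, and none of the last list without array 1 or without array 2. Of 8 oligodendrocyte markers 1 was higher, Mbp at 0.29 ± 0.23 (adjusted p = 0.0451), a call that held in 4 of 13 alternatives, while its other 2 probes stood at 0.11 and -0.11. Of 4 erythrocyte markers tested none passed. Over the whole array 12.7% of features were lower and 8.63% higher.

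Of the 36 named genes called outside the family, 13 kept the call with each array left out in turn: Ogfod1, Selenow, Slc30a3, Slc39a7, Slc39a13, Sult1a1, Il6ra, Aqp4, Aldoc, Slc1a2, Glul, Ctss and Cx3cr1. Of these 13, Aldoc, Glul and Selenow lost it with the scanner software's ratios. The others lost it without at least 1 array: 21 of the 36 calls were lost without array 1, 21 without array 2, 13 without array 3 and 13 without array 4.

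**Figure D5:**
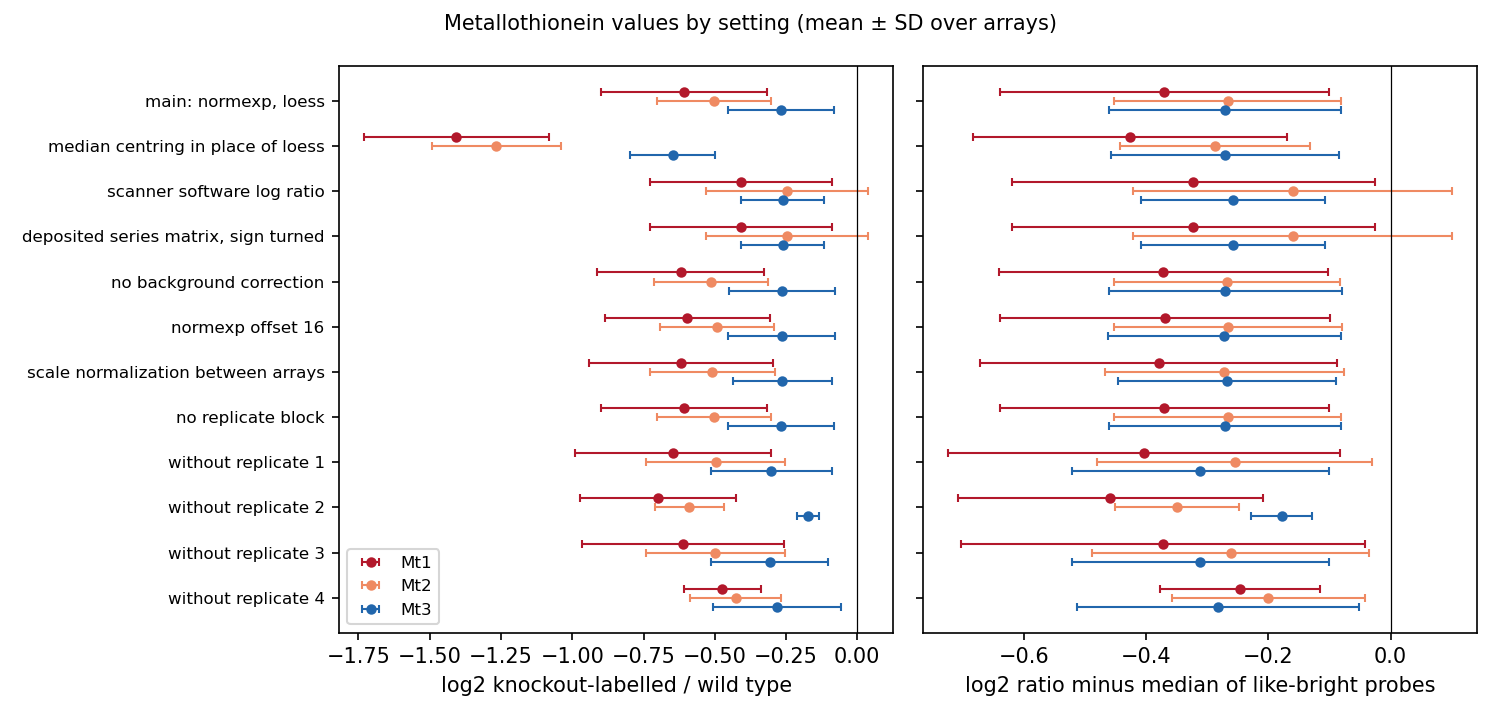
Mean log2 ratio of Mt1, Mt2 and Mt3 (left) and the same minus the median of 200 probes of like brightness (right) under each setting, with SD over the arrays used. All means lie below 0; on the left median centring moves the 3 genes to between -1.41 and -0.65, on the right each gene stays within 1 SD of its main value, and with the scanner software's ratios the bar of Mt2 reaches past 0.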

How the data were processed

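Total RNA (200 ng per sample, per the labels' protocols, whose labelling text mentions shoots, a plant tissue) was hybridised on 4 2-colour Agilent arrays on a single slide. Scanner files came from Agilent Feature Extraction 11.0.1.1, per the file headers, and 10.7.3.1, per the submitters' processing notes. Spot and background intensities and the flags (other values of 0 or 1) were used as deposited. The log10 ratio and its error (an other value) are those of the software's background-subtracted, dye-normalized signals, per the file headers. Log2 values in the deposited matrix run as wild type over knockout, equal to the processed signals for 39030 single-spot probes; their scale, centring and direction are thereby known, and column medians were -0.05, -0.06, -0.04 and -0.03.

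The files used held median in place of mean spot signals, so normexp (offset 50) on medians and within-array loess, controls at weight 0, were run in limma 3.58.1 (R 4.3.3). Outlier spots were left out. Probes well above background on at least 3 of 4 arrays in either channel were kept (30256), and the brightest probe stood for a gene. Ratios were tested against 0 with lmFit and eBayes over 24567 features; the array pairs its 2 samples by construction. Levels are channel values after loess and Aquantile. Symbols came from RefSeq tables of GRCm38.p6, the array itself being annotated on mm9; only the printed promoter stretches carry coordinates. The members, the 14 lists (166 genes, 160 tested) and the tests were chosen with earlier results of these data known. Named are Mt1 to Mt4, Ndrg2, Mtf1, Slc30a1, Slc30a3, Lrp2, up to 4 genes per list with the smallest p that passed, tested genes within 250 kb of the cluster (1 is not reported here), and the 3 genes most like each member over the arrays. The steps were tested on simulated data.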

Additional observations from a re-analysis of the deposited data

How the results depend on the processing

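Mt1, Mt2 and Mt3 stayed below 0 in their mean under every alternative run. With median centring in place of loess, which moved the median of all features from -0.02 to -0.18, they stood at -1.41, -1.27 and -0.65. Mt2 was -0.25 with the scanner software's ratios and with the deposited matrix. With no replicate block (unpaired channels) the means are the same by construction, -0.61, -0.50 and -0.27, which says nothing of stability. With each array left out in turn, Mt1 ranged from -0.70 to -0.47, Mt2 from -0.59 to -0.43 and Mt3 from -0.31 to -0.17, and relative to like-bright probes from -0.46 to -0.25, -0.35 to -0.20 and -0.31 to -0.18. Among probes of like brightness, no alternative moved a gene by more than 1 SD. The SDs of 0.27, 0.19 and 0.19 were large beside the differences of -0.37, -0.27 and -0.27, so this is a loose limit. With the scanner software's ratios Mt2 went to -0.16 ± 0.26. The set of 20 probes was chosen after seeing the data.

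Features called higher and lower numbered 2119 and 3111. They became 6336 and 13175 with median centring, 1260 and 1563 with no replicate block, and 807 to 1260 and 1219 to 1914 with an array left out; features called lower fell to 1752 with the scanner software's ratios and 1753 with the deposited matrix. Of 81 metal and inducer genes tested, 7 were called higher and 9 lower, where 8.63% of all features were higher and 12.7% lower. The number higher became 4 with the scanner software's ratios and with the deposited matrix, and 3 to 7 with an array left out. The number lower became 56 with median centring, 4 with the scanner software's ratios, the deposited matrix and no replicate block, 5 with normexp offset 16, and 3 to 6 with an array left out. With median centring these turned sign: Cox11 -0.029, Herpud1 -0.29, Klf9 -0.11, Lrp2 0.47, Mbp -0.16, Ndrg1 -0.25, Nudt21 -0.25, Nup93 -0.22, Slc30a1 -0.25 and Slc39a7 -0.29. Why these values moved was not tested. All 4 arrays had the same dye orientation, and each gene rested on 1 spot per array.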
